A study of Rattus norvegicus with 61 samples.

Results

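Transcripts of 7 subunits of the voltage-gated sodium channel were followed in the striatum and cerebellum of male Sprague-Dawley rats. The genes were taken by name, as listed neuronal subunits, and not for any measured value. They were the alpha subunits Scn1a (NCBI Gene 81574), Scn2a (24766), Scn3a (497770) and Scn8a (29710) and the beta subunits Scn2b (25349), Scn3b (245956) and Scn4b (315611). They made up 7 of the 14231 genes of the striatal table and of the 14129 genes of the cerebellar table, and all 7 passed the filter on low counts in both regions.

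At postnatal day 28 each rat received a polymer implant under the skin of the back, which stayed in place for 28 days. The implant carried 4-OH-PCB52 (the hydroxylated form of PCB52, a polychlorinated biphenyl) at a loading of 0% (sham), 1% (low), 5% (medium) or 10% (high), so that the sham rats carried the polymer as well. Striatal punches gave 8 sham, 6 low, 8 medium and 8 high libraries. Cerebellar punches gave 7 sham, 8 low, 8 medium and 8 high libraries. The number in a library's name is that of the rat, and 29 rats gave a library of each region. Rats are named here by group and number, as in sham 17.

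The alpha subunit of a sodium channel forms the pore and the voltage sensor, and opens to carry the rising phase of the action potential. Beta subunits are single-pass membrane proteins that shift gating, bring channels to the surface and act in adhesion. In the brain, Scn1a is best known from fast-spiking inhibitory neurons, Scn2a and Scn8a from the axon initial segment, and Scn3a from the developing brain. Scn2b and Scn4b are linked to the pore by a disulfide bond, whereas Scn3b binds it without one. Scn4b is known for its abundance in striatal neurons and for a cytoplasmic tail that can block the open pore and so give the resurgent current of Purkinje cells.

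Of the 7 genes, 4 are neighbours in pairs. In the RefSeq annotation of the GRCr8 assembly, Scn3a and Scn2a are adjacent protein-coding genes on chromosome 3, and Scn2b and Scn4b are adjacent on chromosome 8. The reads were aligned to another build, rn6, so the coordinates below belong to the printed sequences and not to the counts. RefSeq upstream sequences were at hand for 5 of the 7 genes, and Scn1a and Scn3b are only named. The 250 bases before the start are shown for the beta pair, because its genes lay in opposite directions between the regions, and for Scn8a, which had no called difference over all libraries and whose sequence alone held one of the motifs searched. Capitals mark GGGCGG, the GC box, on the printed strand.
Scn2b, chr8:54322133-54322382, plus strand: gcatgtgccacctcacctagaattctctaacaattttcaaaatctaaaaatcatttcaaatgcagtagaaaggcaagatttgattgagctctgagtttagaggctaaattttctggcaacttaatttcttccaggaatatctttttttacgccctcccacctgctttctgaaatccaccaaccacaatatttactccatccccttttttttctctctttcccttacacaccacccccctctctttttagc
Scn4b, chr8:54343623-54343872, plus strand: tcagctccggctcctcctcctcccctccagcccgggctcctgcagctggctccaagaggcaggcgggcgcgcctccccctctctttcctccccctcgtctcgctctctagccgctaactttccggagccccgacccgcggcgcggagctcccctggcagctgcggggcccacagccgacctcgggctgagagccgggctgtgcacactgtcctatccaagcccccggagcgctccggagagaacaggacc
Scn8a, chr7:133860977-133861226, plus strand: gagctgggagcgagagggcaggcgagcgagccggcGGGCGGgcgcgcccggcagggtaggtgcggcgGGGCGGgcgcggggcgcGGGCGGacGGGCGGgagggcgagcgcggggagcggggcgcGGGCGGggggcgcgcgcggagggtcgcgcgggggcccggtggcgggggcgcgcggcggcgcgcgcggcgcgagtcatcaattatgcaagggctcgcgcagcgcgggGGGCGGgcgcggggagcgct

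The upstream sequences of the 2 neighbouring beta genes differed in base composition: 38.8% of the Scn2b bases and 71.6% of the Scn4b bases were G or C. The share was 86% for Scn8a, 39.6% for Scn2a and 41.6% for Scn3a, against a median of 51.2% over the 33469 tabulated rat promoters. On both strands, 6 motifs were searched in the 5 available sequences. The GC box GGGCGG was found 6 times upstream of Scn8a and in none of the other 4, and 30.47% of all promoters held it. CCAAT (in 34.02% of all promoters), TATAAA (12.93%), the E box CACGTG (5.593%), the cyclic AMP response element TGACGTCA (1.587%) and TTCAGCACC, the left part of the RE1 element (0.3048%), were found in none of the 5 windows. A match is only a match of letters.

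Depth ranged from 5850200 to 10944100 counted reads in the striatum and from 5420460 to 10994600 in the cerebellum. Between the sham groups, markers followed the region labels: 16 of 16 genes of striatal projection neurons were higher in the striatum and 13 of 13 genes of cerebellar granule cells were lower there. This compares groups and does not bear out the label of each punch. Striatal sham 17 and cerebellar low 22, described below, were poor in the neuron transcripts of their region. Some libraries stood apart from their region. A library was set apart where its mean log2 CPM (the count scaled to library size) over ribosomal protein genes, or over the neuron list of its own region, differed from the region's median by over 1 log2 unit. In the striatum 8 of 30 met this rule, of which 2 were sham, 1 low, 2 medium and 3 high rats. In the cerebellum 10 of 31 did, of which 1 was a sham rat, 2 low, 4 medium and 3 high. No subunit entered the rule. Results are given with and without these libraries where stated, and differences within a rat with them only. In whole punches, fewer cells of a type and less RNA per cell cannot be told apart.

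Scn3b and Scn4b separated the 2 regions most. In sham rats Scn3b was 18.3 times and Scn4b 14.2 times as high in the striatum as in the cerebellum, and Scn3a was 2.96 times as high. The other 4 subunits, Scn1a, Scn2a, Scn8a and Scn2b, had lower values in the striatum but did not pass the test over all libraries. Levels are in CPM and are compared for 1 gene across libraries only, because transcript lengths were not at hand to compare genes.

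**Figure D1:**
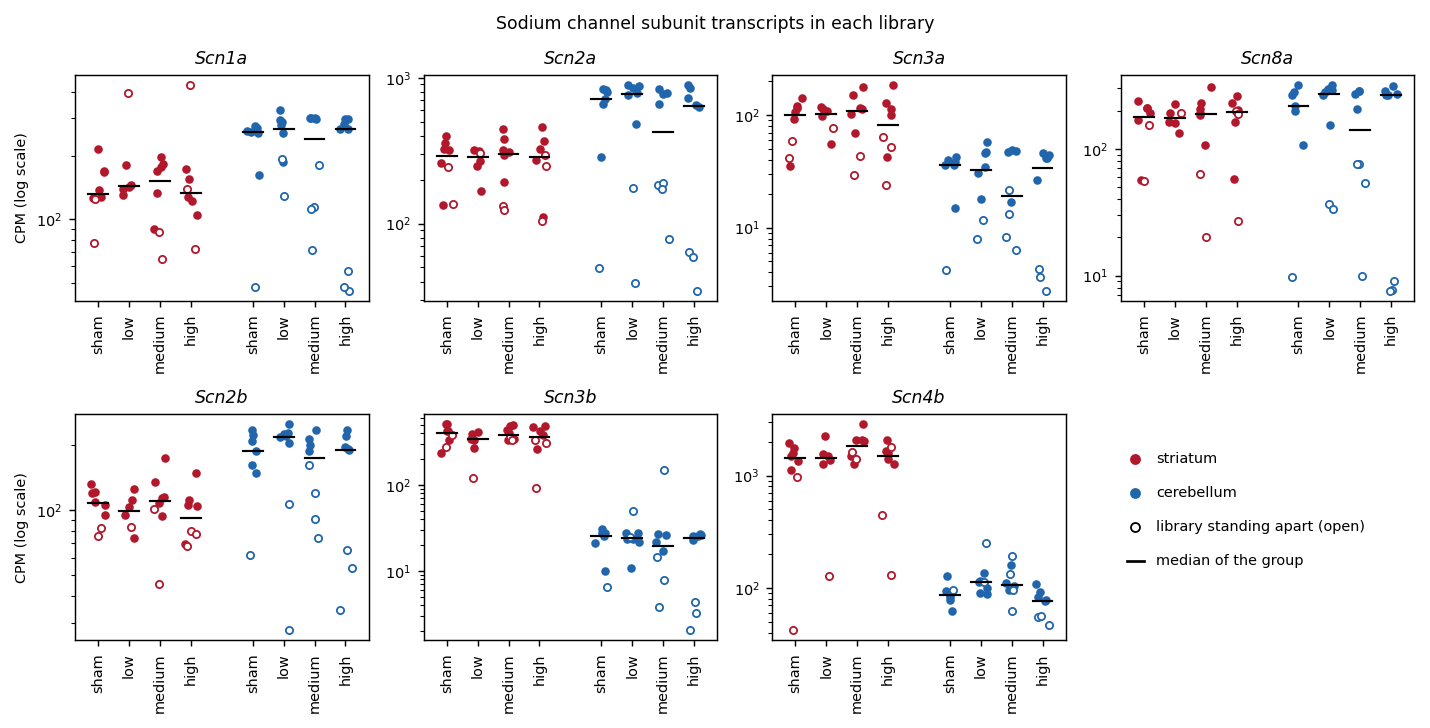
Level of each subunit (CPM, log scale) in every library, by region and exposure group; points are libraries, open points are libraries standing apart, and the line is the group median. Scn3b and Scn4b lie higher in the striatum (sham medians 404 and 1420 CPM) than in the cerebellum (25.2 and 86.4 CPM), and the exposure groups within a region overlap.

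Among the alpha subunits, Scn3a was the one higher in the striatum. Its sham striatal level was 89.6 ± 39.6 CPM (SD, n = 8; lowest 35.4, median 100, highest 143), against 30.3 ± 14.7 CPM in the cerebellum (n = 7; lowest 4.22, median 36.2, highest 42.7). The groups overlapped, since the lowest striatal library, sham 48, lay below the highest cerebellar one. The difference was 1.56 ± 0.52 log2 units (SE; edgeR quasi-likelihood test, Benjamini-Hochberg adjusted p = 0.0117).

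Scn2a, the neighbour of Scn3a, lay the other way. Its sham level was 273 ± 98.1 CPM in the striatum (lowest 135, median 291, highest 400) and 598 ± 308 CPM in the cerebellum (lowest 49.4, median 710, highest 842). Of the 7 cerebellar libraries 5 were above every striatal one, sham 1 lay among the striatal ones at 288 CPM, and sham 48 was below them all. The difference was -1.13 ± 0.54 log2 units and did not pass the test over all libraries (edgeR adjusted p = 0.0836).

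Scn1a was at 143 ± 41 CPM in the sham striatum (lowest 77.3, median 132, highest 215) and at 218 ± 84.5 CPM in the sham cerebellum (lowest 47.8, median 259, highest 275). Scn8a was at 160 ± 69.4 CPM (lowest 55.3, median 179, highest 239) and 200 ± 108 CPM (lowest 9.68, median 220, highest 320). For both genes the ranges of the regions overlapped, and the lowest cerebellar library was again sham 48. The differences were -0.61 ± 0.38 log2 units for Scn1a (edgeR adjusted p = 0.194) and -0.32 ± 0.63 for Scn8a (edgeR adjusted p = 0.717).

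The beta subunits differed more from each other. Scn3b was at 390 ± 100 CPM in the sham striatum (lowest 239, median 404, highest 514) and at 21.3 ± 9.52 CPM in the sham cerebellum (lowest 6.45, median 25.2, highest 31.1). It was the one subunit of the 7 whose sham libraries did not overlap between regions. The share of all tested genes without such overlap was not computed, so this is not set against a background. The difference was 4.20 ± 0.54 log2 units (edgeR adjusted p = 3.87e-09).

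Scn4b was at 1281 ± 593 CPM in the sham striatum (lowest 42.2, median 1420, highest 1944) and at 89.9 ± 20.4 CPM in the sham cerebellum (lowest 63.1, median 86.4, highest 129). One striatal library, sham 17, was below every cerebellar sham library, and the other 7 were above them all. The difference was 3.83 ± 0.46 log2 units (edgeR adjusted p = 7.84e-10).

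Scn2b, next to Scn4b on the chromosome, was at 105 ± 19.6 CPM in the sham striatum (lowest 75.9, median 107, highest 132) and at 175 ± 58.8 CPM in the sham cerebellum (lowest 61.5, median 188, highest 235). The cerebellar libraries were the higher ones except for sham 48. The difference of -0.73 ± 0.32 log2 units did not pass the test over all libraries (edgeR adjusted p = 0.0568).

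The order of the 7 subunits was much the same within each exposure group. In low rats the difference, striatum over cerebellum, was 3.58 ± 0.51 log2 units for Scn3b, 3.41 ± 0.44 for Scn4b and 1.58 ± 0.52 for Scn3a, and Scn2b also passed the test there (-0.90 ± 0.34, edgeR adjusted p = 0.0306). That Scn2b call was lost in 6 of 14 fits that left out 1 library (largest adjusted p 0.0714) and with the animal as a block (limma-voom, -0.70 ± 0.33, adjusted p = 0.0795). In medium rats the called values were 3.58 ± 0.49 for Scn3b, 3.96 ± 0.44 for Scn4b and 1.94 ± 0.50 for Scn3a. In high rats they were 4.34 ± 0.51, 4.11 ± 0.44 and 1.76 ± 0.50. The medium value of Scn3b was 4.61 without cerebellar medium 40, the library with its highest cerebellar level. Scn1a and Scn2a had values between -1.17 and -0.24 in the 3 exposed groups, and Scn8a between -0.24 and 0.05. Scn2b was at -0.54 ± 0.31 in medium and -0.63 ± 0.31 in high rats. None of these values passed.

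Thus 3 of 7 subunits were called in sham, medium and high rats and 4 of 7 in low rats, where Scn2b was not called with the animal as a block. Regional differences were common among all genes: 43% of 12616 tested genes were called in sham rats, 37.2% in low, 41.3% in medium and 56% in high rats. The members' share was of the same order as this background. Of 30 tested ribosomal protein genes 27 were lower in the striatum in high rats, and 0 passed in the other 3 groups; their part in the subunit values was not tested. The median of all genes was -0.09 log2 units in sham rats, and the median of the 7 subunits was -0.32.

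**Figure D2:**
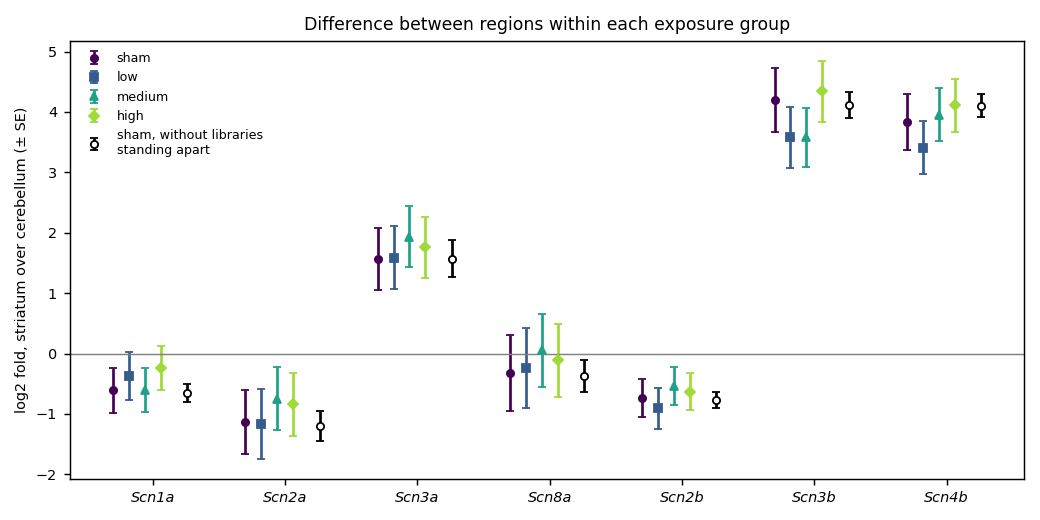
Log2 fold of each subunit, striatum over cerebellum, with its standard error, in each exposure group (filled symbols) and in sham rats without the libraries standing apart (open circles). Scn3b, Scn4b and Scn3a lie above 0 in every group, and the open circles of Scn1a, Scn2a and Scn2b lie below 0 with shorter bars.

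Without the libraries standing apart the standard errors shrank and more subunits were called. In sham rats (6 libraries per region) Scn3b was higher in the striatum by 4.11 ± 0.22 log2 units, Scn4b by 4.10 ± 0.20 and Scn3a by 1.57 ± 0.30. Scn2a was lower by -1.20 ± 0.24 (edgeR adjusted p = 3.99e-05), Scn2b by -0.77 ± 0.13 and Scn1a by -0.66 ± 0.15 (edgeR adjusted p = 0.000141). Scn8a was at -0.37 ± 0.26 and did not pass (edgeR adjusted p = 0.205).

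The count was then 6 of 7 in sham, medium and high rats and 7 of 7 in low rats, where Scn8a was at -0.61 ± 0.28 (edgeR adjusted p = 0.0475). The share of all genes called was higher as well, at 67.3% in sham, 68.1% in low, 66% in medium and 67.3% in high rats. Leaving out cerebellar sham 48 alone gave 5 of 7 called subunits in sham rats. In each of the 15 fits that left out 1 sham library, Scn3a, Scn3b and Scn4b were called, with values of 1.41 to 1.71, 4.07 to 4.31 and 3.72 to 4.02 log2 units.

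The comparison within a rat gave the same order. Over the 29 rats with both regions, Scn3a and Scn3b were higher in the striatal library of 29 and Scn4b in that of 28. The exception for Scn4b was sham 17, at -1.14 log2 units. Scn1a and Scn2a were lower in the striatum of 21 of 29 rats, Scn8a of 19 and Scn2b of 22. These counts include the libraries standing apart. Of the 8 rats with Scn2a higher in the striatum, all but sham 1 had a cerebellar library standing apart. The median differences within a rat were 4.18 log2 units for Scn3b, 4.04 for Scn4b, 1.68 for Scn3a, -0.33 for Scn8a, -0.61 for Scn1a, -0.84 for Scn2b and -1.03 for Scn2a.

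The labels speak of 4 cohorts without naming the cohort of a rat, and runs of 15 animal numbers served as a stand-in. The mean difference within a run ranged from 4.10 to 4.63 log2 units for Scn3b, from 2.95 to 4.13 for Scn4b and from 1.76 to 2.11 for Scn3a. It was below 0 in all 4 runs for Scn1a (-0.65 to -0.18), Scn2a (-0.80 to -0.22) and Scn2b (-0.73 to -0.24). For Scn8a it lay on both sides of 0 (-0.11 to 0.59). The run means include the libraries standing apart. The largest Scn8a differences were 4.35 in high 43, 3.39 in medium 24, 2.90 in high 59 and 2.51 in sham 48. The cerebellar library of each of these rats stood apart. Scn8a was at -0.25 in medium 8 and -1.38 in medium 41, whose libraries of both regions stood apart.

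**Figure D3:**
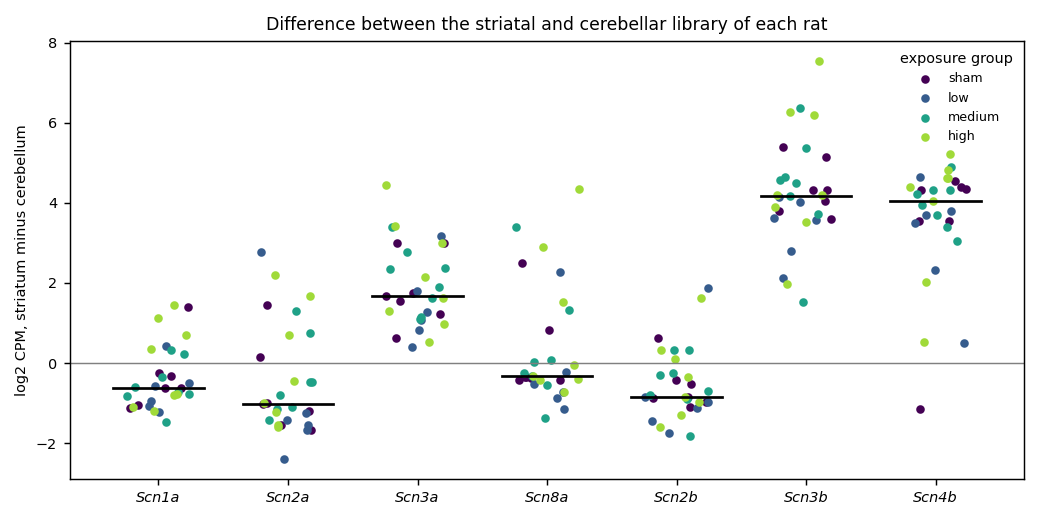
Difference in log2 CPM between the striatal and the cerebellar library of each of 29 rats, coloured by exposure group, with the median as a line. All points of Scn3a and Scn3b lie above 0, 1 point of Scn4b lies at -1.14, and the points of the other 4 subunits lie on both sides of 0.

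The libraries that stood apart did not move the 7 subunits alike. The values that follow are CPM scaled within a region. Striatal libraries sham 17, low 20 and high 13 had projection neuron means of 4.92, 5.56 and 5.76 log2 CPM, against 8.85 to 9.70 in the 22 libraries that did not stand apart. Scn4b was at 42.5, 128 and 132 CPM in these 3 libraries, against 1134 to 2864 in the 22. Scn1a was higher in low 20 and high 13, at 398 and 433 CPM against 92.9 to 212, and was at 125 CPM in sham 17. Scn3b was lower in low 20 and high 13, at 122 and 91.9 CPM against 242 to 517, but was at 388 CPM in sham 17. The granule cell list had means of 6.09, 6.29 and 6.12 log2 CPM in the same 3 libraries, against 2.82 to 5.42 in the 22. Sham 17 also had a choroid plexus mean of 8.10 log2 CPM, against 0.12 to 4.07. The part of these list differences in the subunit values was not tested.

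In the cerebellum, libraries sham 48, medium 24 and high 28, 43 and 59 had ribosomal protein means of 10.2 to 12.3 log2 CPM, against 7.41 to 8.56 in the 21 libraries that did not stand apart. Scn8a was at 7.60 to 10.1 CPM in these 5 libraries and at 105 to 310 CPM in the 21. Scn2a was at 34.6 to 78.9 CPM against 283 to 869, and Scn3a at 2.74 to 6.44 CPM against 14.8 to 56.7. Scn1a was at 46.2 to 72.3 CPM against 160 to 321. Scn4b was the exception, at 47.3 to 96.4 CPM against 61.5 to 156, so that it overlapped. Cerebellar low 22, with a granule cell mean of 4.13 log2 CPM, had 252 CPM of Scn4b and 27.5 CPM of Scn2b, above and below all 21 libraries. Its mean over oligodendrocyte genes was 10.6 log2 CPM, the highest of the cerebellum. Medium 40, with a granule cell mean of 6.78, had 155 CPM of Scn3b, a mean of 6.71 over cortical excitatory neuron genes, against 5.29 to 5.68 in the 21, and a projection neuron mean of 5.05, against 3.55 to 4.13. The part of these list means in the Scn3b value was not tested.

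Among the libraries that did not stand apart, 28 relations (7 subunits, 2 lists, 2 regions) were computed, with permutation p-values from 100000 draws adjusted over the 28. The points share normalization within a library, since CPM sums to a fixed total. In the striatum (22 libraries) all 7 subunits correlated positively with the projection neuron mean. For Scn3b, Pearson's r was 0.89 and Spearman's rho 0.89 (permutation p = 1e-05 for each, the smallest these draws can give, and adjusted p = 3.5e-05 and 4.67e-05). For Scn4b, r was 0.83 and rho 0.79 (permutation p = 1e-05 and 3e-05, adjusted p = 3.5e-05 and 0.000105). Without the 2 libraries farthest from the median of the list, r was 0.86 for Scn3b and 0.73 for Scn4b. The same subunits also went with the other list. With the ribosomal protein mean, r was -0.83 for striatal Scn3b and -0.46 for Scn4b, and striatal Scn8a had r = 0.72 with the projection neuron mean. The parts of the 2 lists were not separated.

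Striatal Scn8a correlated with the ribosomal protein mean at r = -0.93 and rho = -0.82 (permutation p = 1e-05 for each, adjusted p = 3.5e-05 and 4.67e-05), and at r = -0.85 without the 2 farthest libraries. Cerebellar Scn8a (21 libraries) gave r = -0.96 and rho = -0.78 (permutation p = 1e-05 and 7e-05, adjusted p = 3.5e-05 and 0.000218), and r = -0.80 without the 2 farthest. Cerebellar Scn4b gave r = 0.35 and rho = 0.25 with that list (permutation p = 0.125 and 0.269, adjusted p = 0.13 and 0.29). With the granule cell mean it gave r = -0.36 and rho = -0.14 (permutation p = 0.111 and 0.532, adjusted p = 0.12 and 0.532). Only 1 run of animal numbers in each region held at least 6 of these libraries. In the striatal run (7 libraries) r with projection neurons was 0.97 for Scn3b, 0.94 for Scn4b and 0.94 for Scn8a. With ribosomal genes it was -0.94, -0.72 and -0.97 for the same 3 subunits. In the cerebellar run (6 libraries) r was -0.997 (rho -0.77) for Scn8a and 0.73 (rho 0.66) for Scn4b with ribosomal genes. With granule cells it was 0.95 (rho 0.94) for Scn8a and -0.74 (rho -0.49) for Scn4b. Some relations over the 21 cerebellar libraries depended on few of them. With ribosomal genes Scn3b gave r = -0.74 and rho = -0.15, and r = 0.24 without the 2 farthest libraries. Scn1a gave r = -0.86 and rho = -0.31, and r = -0.25 without the 2 farthest.

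**Figure D4:**
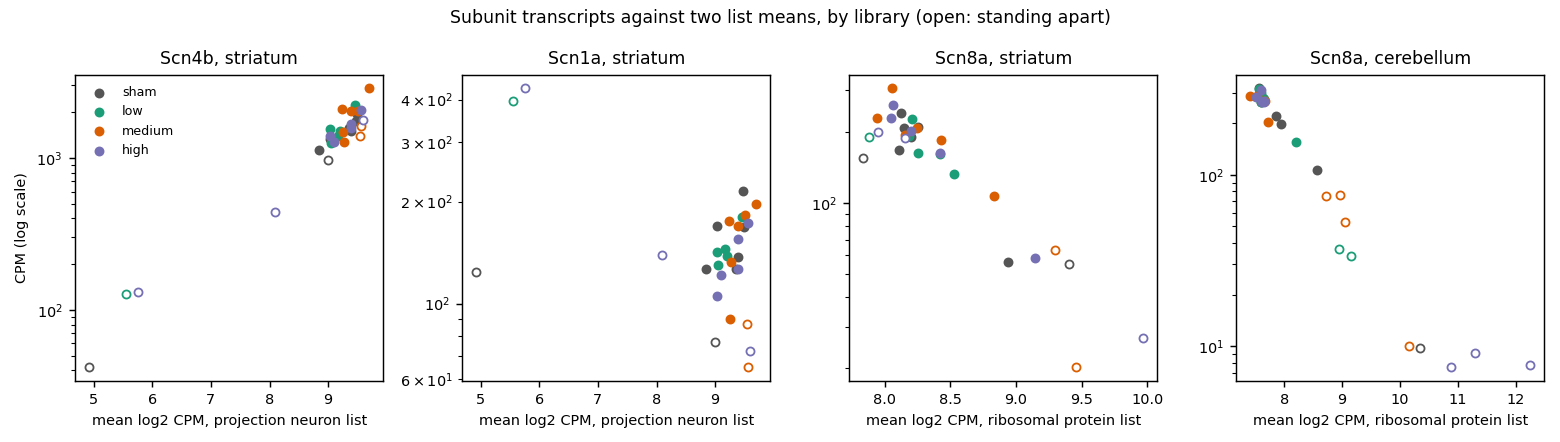
Level of Scn4b and Scn1a against the mean of the projection neuron list in the striatum, and of Scn8a against the mean of the ribosomal protein list in both regions (vertical axis CPM on a log scale, horizontal axis mean log2 CPM of the list; 1 point per library, coloured by exposure group, open where the library stands apart). Scn4b is lowest where the projection neuron mean is lowest, Scn1a is highest in 2 of those libraries, and Scn8a is lower where the ribosomal mean is higher in both regions.

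The study asked what exposure does to gene expression in the 2 regions, and no subunit was called in any comparison with sham. This held for 0 of 7 at each loading in each region, for any loading, for the linear trend with loading and for the difference between regions in the change at each loading. After adjustment the background was equally bare: 0% of 12267 striatal and 0% of 11946 cerebellar genes were called at each single loading and for the trend. For any loading, 0.0245% of striatal genes were called and 0% of cerebellar genes. For the difference between regions, 0% of 12616 genes were called at low and at medium and 0.00793% at high loading. Before adjustment, 1 of the 7 subunits had p under 0.05 in cerebellum low versus sham (182 of all 11946 genes) and 1 in cerebellum any loading (1236 of 11946), Scn4b in each case. In the other exposure comparisons none of the 7 had. Among all genes the number ranged there from 119 of 12267 for the striatal trend to 2464 of 11946 for the cerebellar trend. It was 1394 of 11946 for cerebellum high versus sham. DESeq2 and limma-voom called none of the 7 either. The comparisons at the 3 loadings share their sham libraries.

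Cerebellar Scn4b had the smallest p among the subunits. Its level was 89.9 ± 20.4 CPM in sham (n = 7; lowest 63.1, median 86.4, highest 129) and 126 ± 53.7 CPM in low rats (n = 8; lowest 88.4, median 113, highest 253). It was 119 ± 41.4 CPM in medium (n = 8; lowest 63.0, median 107, highest 194) and 74.8 ± 20.7 CPM in high rats (n = 8; lowest 47.4, median 77.5, highest 109). All 4 groups overlapped. The log2 values against sham were 0.49 ± 0.23 at low (edgeR adjusted p = 1.00), 0.43 ± 0.23 at medium (adjusted p = 0.999) and -0.27 ± 0.23 at high loading (adjusted p = 0.693). The edgeR test of any loading gave an adjusted p of 0.388, and over 9 alternative settings it ranged from 0.0796 with DESeq2 to 0.989. The trend was -0.05 ± 0.02 log2 units per percent of loading (edgeR adjusted p = 0.267).

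Without the libraries standing apart the same values were 0.28 ± 0.15, 0.40 ± 0.17 and -0.02 ± 0.16, and the adjusted p for any loading was 0.989. Within the 4 runs of animal numbers the low minus sham difference ranged from -0.03 to 0.79 log2 units, and each run held 2 low and at most 2 sham libraries. The highest low library was low 22. In the fit of all libraries, 10 of 10 oligodendrocyte genes had higher values in low than in sham cerebella (median 0.89 log2 units, none called). The library means over these genes had similar medians, 8.04 log2 CPM in low and 7.97 in sham cerebella. The highest of these means was that of low 22, at 10.6. The part of these list differences in the Scn4b values was not tested.

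Striatal Scn4b had medians of 1420 CPM in sham, 1441 in low, 1829 in medium and 1492 in high rats. The sham, low and high groups each held 1 library far below the rest (sham 17, low 20 and high 13 at 42.2, 127 and 131 CPM), while the lowest medium library was at 1275 CPM. The log2 values were 0.08 ± 0.53, 0.54 ± 0.49 and 0.03 ± 0.49 (edgeR adjusted p from 0.976 to 1.00). The projection neuron list was higher in 16 of 16 genes at medium loading (median 0.42 log2 units, none called).

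Striatal Scn3b had medians of 404, 341, 389 and 362 CPM from sham to high, with log2 values of -0.30 ± 0.26, 0.06 ± 0.24 and -0.15 ± 0.24. Cerebellar Scn3b had medians of 25.2, 24.3, 19.3 and 24.3 CPM, with log2 values of 0.30 ± 0.59, 0.70 ± 0.60 and -0.32 ± 0.59. The group medians differed by little beside the spread within a group, and the cerebellar medium value was -0.02 without the libraries standing apart, of which medium 40 (152 CPM) is 1. For Scn2b the striatal medians were 107, 98.5, 110 and 92.0 CPM and the cerebellar ones 188, 218, 174 and 190 CPM, with log2 values from -0.25 to 0.08 over both regions and the 3 loadings.

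Scn8a and Scn2a had the widest errors of the 7 subunits in the cerebellum. Scn8a there had medians of 220, 272, 140 and 268 CPM from sham to high, and its lowest libraries were at 9.68, 33.4, 10.0 and 7.58 CPM. Scn2a had medians of 710, 775, 426 and 637 CPM, with lowest libraries between 34.6 and 78.0 CPM in the 4 groups. Scn1a had medians of 259, 267, 239 and 266 CPM, and Scn3a of 36.2, 32.6, 19.3 and 33.8 CPM. The medium group had the lowest median for each of these 4 genes. Libraries standing apart numbered 1 of 7 in sham, 2 of 8 in low, 4 of 8 in medium and 3 of 8 in high cerebella, and their part in the medians was not tested.

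The log2 values of these 4 genes in the cerebellum ranged from -0.37 to 0.16, with standard errors of 0.41 to 0.75. In the striatum the 4 alpha subunits had values from -0.05 to 0.41 with errors of 0.29 to 0.44. The largest, Scn1a at low loading, turned from 0.41 to -0.075 without the libraries standing apart.

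In high cerebella 7 of 7 subunits had values below sham (median -0.25 log2 units, against -0.03 over all genes). Without the libraries standing apart, 6 of the 7 had values above sham (0.09 for Scn2b to 0.28 for Scn8a) and Scn4b was at -0.02. The ribosomal protein mean ranged from 7.51 to 12.3 log2 CPM in high and from 7.57 to 10.3 in sham cerebella, and 3 of 8 high against 1 of 7 sham libraries stood apart. In low cerebella 7 of 7 values lay above sham (median 0.07). In low, medium and high striata 5, 6 and 4 of 7 lay above (medians 0.08, 0.06 and 0.01).

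**Figure D5:**
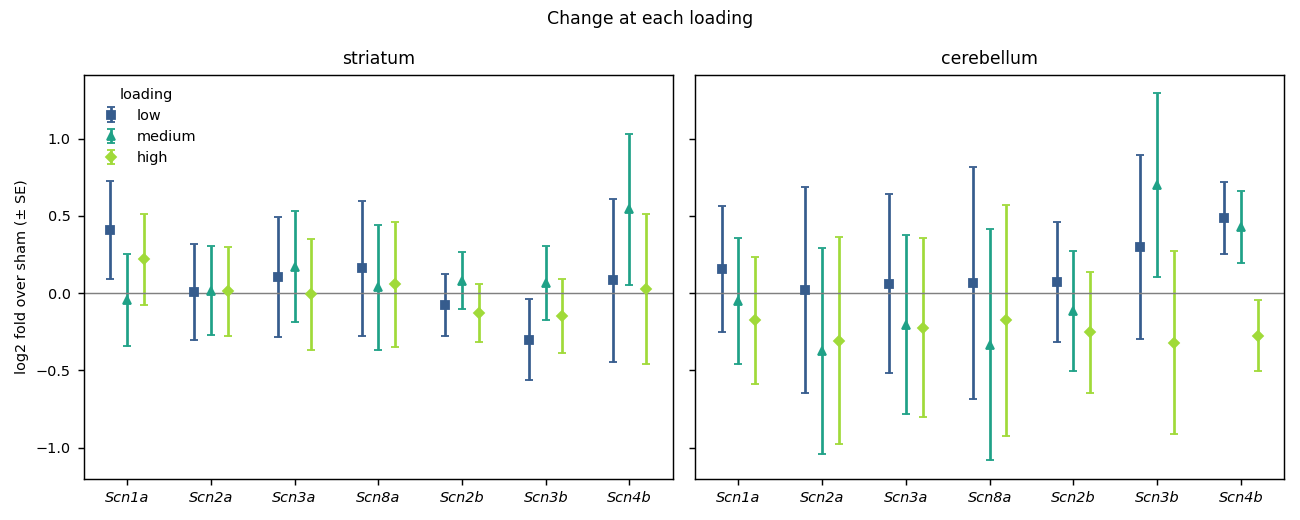
Log2 fold over sham of each subunit at low, medium and high loading, with its standard error, in the striatum (left) and cerebellum (right). Most bars cross 0. Those of cerebellar Scn4b do not (0.49, 0.43 and -0.27 at low, medium and high loading). Nor do those of cerebellar Scn3b and striatal Scn4b at medium loading and of striatal Scn1a and Scn3b at low loading. No value passed the test across all genes.

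The change at a loading was not called different between the regions for any subunit. The widest values of this interaction were -0.62 ± 0.67 log2 units for Scn3b at low loading and -0.62 ± 0.64 at medium loading. At high loading the 7 values ran from 0.10 for Scn2b to 0.37 for Scn1a, with errors of 0.44 to 0.87. Without the libraries standing apart, Scn3b was at -0.14 ± 0.29 at low and 0.08 ± 0.30 at medium loading. The high values then ran from -0.37 ± 0.22 for Scn1a to 0.10 ± 0.26 for Scn4b. All of these but Scn4b lay below 0, and none was called.

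Other genes of sodium channel biology were taken in 6 lists. As background, 2641 of all 12616 tested genes were called higher and 2790 lower in the striatum of sham rats (43% in all). In sham rats 5 of the 7 other listed subunits could be tested, and 2 were higher and 1 lower in the striatum. The median of the 5 differences was 0.91 log2 units. The mean log2 CPM of the list was 3.23 in the sham striatum and 4.73 in the sham cerebellum. Those 2 means were filtered and scaled within each region, so they are not comparable between regions. Of the called genes, Scn9a alone is reported here. Scn9a, known from sensory neurons and the neighbour of Scn1a, was at 14.1 ± 5.62 CPM in the striatum and 7.55 ± 3.46 CPM in the cerebellum, a value of 0.91 ± 0.34 (edgeR adjusted p = 0.0252). The Scn9a call was lost in 3 of 15 fits without 1 library, striatal sham 1 or sham 17 or cerebellar sham 1 (largest adjusted p 0.0586). Scn7a (2.18 ± 1.00, adjusted p = 0.0743) and Scn4a (0.11 ± 0.43) did not pass. Scn7a passed with DESeq2 (adjusted p = 0.0161), with the run of animal numbers as an edgeR block (adjusted p = 0.0370) and without the libraries standing apart (edgeR adjusted p = 0.00479).

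Among the fibroblast growth factor homologous factors and other proteins that bind the channel's tail, 2 of 7 were higher and 2 lower in the striatum of sham rats. Fgf13 was higher by 1.67 ± 0.22 log2 units (edgeR adjusted p = 6.23e-09). Fgf12 was lower by -0.63 ± 0.18 and Fgf11 by -0.89 ± 0.26. Of 16 tested genes of the axon initial segment and node, 3 were higher and 1 lower. The higher ones were Kcnq3 (2.96 ± 0.55), a potassium channel of the initial segment, Mag (1.88 ± 0.35), a myelin glycoprotein, and Trim46 (0.83 ± 0.15), which orders axonal microtubules. Cntn2, an axonal adhesion protein, was lower (-1.37 ± 0.53, adjusted p = 0.0314), a call lost in 6 of 15 fits without 1 library and with the animal as a block (adjusted p = 0.0791).

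Ank3, the ankyrin that anchors the channels at the initial segment, was at 0.04 ± 0.50. All 10 oligodendrocyte genes were higher in the striatum too (median 1.81 log2 units) and their part in the Mag value was not tested. Ank3 was chosen for mention after its value was seen.

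Of 10 tested trafficking and modifying genes 2 were lower, the kinase Camk2d (-2.94 ± 0.52) and Pak1 (-1.30 ± 0.23). Of 9 tested genes of the sodium pump, which restores the gradient that the channels use, 5 were lower and none higher. Fxyd7, a brain regulator of the pump, was lower by -1.96 ± 0.33 log2 units, Fxyd1 by -1.34 ± 0.40 and Atp1b2 by -1.33 ± 0.30. Fxyd1 did not pass without cerebellar sham 48 (-0.92, adjusted p = 0.0606). Neither of the 2 tested genes of the sodium leak channel passed. The medians were -0.53 log2 units over the pump genes and -0.09 over all genes.

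In low, medium and high rats the other subunits gave 2, 1 and 3 higher genes and 1 lower gene in each group. The channel-binding factors gave 2 higher and 2 lower in each, the initial segment genes 3 higher and 0 lower in each. The trafficking genes gave 0 higher and 3, 3 and 2 lower, the pump genes 1 higher and 5 lower in each, and the leak channel none. Over all 12616 tested genes, 2374, 2551 and 2880 were called higher and 2322, 2660 and 4184 lower in low, medium and high rats. No gene of the 6 lists was called in any exposure comparison.

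By likeness of log2 CPM over all libraries of a region, the 3 genes most like each subunit were found among all tested genes. This likeness is a description and takes no p. In the striatum (30 libraries) the genes most like Scn4b were Rgs9 (Pearson r 0.99, Spearman rho 0.89), Rasgrp2 (0.98, 0.85) and Rasd2 (0.98, 0.79), all 3 from the projection neuron list. Among the 22 libraries not standing apart their r was 0.91, 0.90 and 0.68. In the cerebellum (31 libraries) they were the neurofilament genes Nefh (0.84, 0.73) and Nefm (0.81, 0.68) and Vps11 (0.78, 0.66), with r of 0.59, 0.71 and 0.40 among the 21 libraries not standing apart. None of the 3 genes was the same in the 2 regions.

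Striatal Scn3b was most like Slitrk5 (r 0.97), Neto1 (0.96) and Kcng1 (0.96), and cerebellar Scn3b most like Rimbp2 (0.97), Abr (0.95) and Gabra2 (0.95). Among libraries not standing apart the striatal values were 0.96, 0.95 and 0.90, and the cerebellar ones 0.77, 0.46 and 0.52. Scn2b was most like B3galt1 (0.91), Csnk2a1 (0.90) and Diras2 (0.90) in the striatum and Slc1a3 (0.98), the glial glutamate transporter, Btbd3 (0.98) and Xkr7 (0.98) in the cerebellum. Among libraries not standing apart the striatal values were 0.83, 0.83 and 0.91, and the cerebellar ones 0.71, 0.88 and 0.64.

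For the alpha subunits, Nrxn3, a synaptic adhesion gene, was among the 3 for both Scn2a (r 0.97, with Prpf8 and Cacna2d1) and its neighbour Scn3a (0.96, with Myt1l and Tnik) in the striatum. Tnik was also among the 3 for Scn8a in the cerebellum (r 1.00, with Synj1 and Hecw1). In the striatum Scn8a was most like Tanc2 (0.99), Nsd1 and Adar, and Scn1a most like Oip5-as1 (0.94), Epb41l3 and Ptpn4. In the cerebellum Scn1a was most like Atrn (0.99), Spag9 and Pdcd6ip, Scn2a most like Ppm1l (0.99), Mier3 and Tmem63c, and Scn3a most like Iqsec2 (0.96), Ppp1r12b and Ipo9. Among libraries not standing apart, the r of the alpha subunits' nearest genes ranged from 0.55 (Ptpn4 with Scn1a) to 0.98 (Nrxn3 with Scn2a) in the striatum and from 0.77 (Ppp1r12b with Scn3a) to 0.97 (Synj1 with Scn8a) in the cerebellum.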

How the data were processed

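The values analysed were whole-number counts of reads per gene deposited by the authors, 1 table per region (30 striatal and 31 cerebellar libraries). HISAT2, FastQC and the build rn6 are named in the submitters' processing notes. Not given in the sources used here were the counter, strand setting and handling of reads shared by paralogs, so reads of similar alpha subunits could be split. The labels' protocols name both poly(A) selection and ribosomal RNA depletion and do not tie either to a library.

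Genes were kept with filterByExpr and scaled by TMM. Quasi-likelihood models (edgeR 4.0.16, limma 3.58.1, R 4.3.3) were fitted per region over 4 groups (12267 and 11946 genes), and regions were compared in a fit of both regions with 8 groups (12616 genes). P-values were adjusted over all genes by the Benjamini-Hochberg method at 0.05. Levels are CPM, and list means average log2 CPM (prior count 2). The pipeline was tested on simulated data.

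Members, lists and rules were chosen with earlier results of these data known. Named were the 7 subunits, the other listed subunits, up to 4 genes of each further list with the smallest p past the sham region test and any gene past an exposure test, and the 3 genes most like each subunit. Some genes that this rule names are not reported here. Alternatives were other scaling, filters, DESeq2 1.42.0, limma-voom with quality weights, covariates, blocks and left-out libraries. Animal numbers pair the regions, since same-numbered libraries come from 1 rat. Over 29 pairs the correlation of deviations had a median of 0.35 (lowest -0.24, highest 0.82), and it was over 0.1 in 21. Only 5 of the 29 striatal libraries correlated best with the cerebellar library of their own rat. The pairing therefore rests on the numbers and not on these correlations. Group replicates are separate rats.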

Additional observations from a re-analysis of the deposited data

Results flagged for a closer look

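In 5 of 56 sets of libraries (1 subunit in 1 group of 1 region), the extreme library lay farther from its nearest neighbour than a 95% Dixon limit allows. Chance alone flags about 1 in 20 sets. The 5 values came from 4 libraries, all of which stood apart by the neuron list. Scn1a was at 395 CPM in striatum low 20, with the next library at 180 CPM, and at 432 CPM in striatum high 13, with the next at 173 CPM. Both punches were poor in projection neuron transcripts. Scn3b was at 152 CPM in cerebellum medium 40, with no other library of the group above 27.02 CPM. Cerebellum low 22 was extreme for Scn3b, at 50.002 CPM (next 27.6 CPM), and for Scn4b, at 253 CPM (next 137 CPM).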

How the results depend on the processing

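Alternatives for the regions in exposed rats, for named genes outside the 7 subunits, and for the trend and any loading of Scn4b were added after seeing the data. Of 858 alternative values of single genes, 761 kept direction and side of the threshold, 27 came to pass it, 3 were lost and 67 changed sign. Values of the difference between regions in the change at a loading were not among the 858. No sign change was in a value that passed the test in the fit as reported. Of 159 alternative counts of called subunits 151 stayed within 1.5 times, and 0 subunits were called for exposure under any. limma-voom and leaving out the libraries standing apart each gave 6 called in sham, medium and high rats and 7 in low rats. Leaving out 1 library gave 3 to 5 in sham (5 without cerebellar sham 48), 3 to 5 in low, 3 in medium and 3 to 4 in high rats. With the animal as a replicate block (limma-voom, consensus correlation 0.250), Scn8a became 0.035 in sham, 0.044 in low and 0.86 in high rats, and the calls of Scn2b in low rats (-0.70, adjusted p = 0.0795) and of Cntn2 (-1.10) were lost. Among the values refitted with it, the block changed no other call. Scn9a was lost without animal 17 (0.87, adjusted p = 0.0525).

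The sign changes, in log2 units against sham unless the regions are named, had a cause that was not tested. Without the libraries standing apart, low striata gave Scn1a -0.075, Scn2a -0.17, Scn3a -0.034 and Scn8a -0.013, medium striata gave Scn1a 0.017, and high striata gave Scn1a -0.20, Scn3a 0.16 and Scn3b 0.0064. Low cerebella gave Scn3b -0.062, medium cerebella gave Scn1a 0.29, Scn2a 0.16, Scn3a 0.23, Scn8a 0.19, Scn2b 0.11 and Scn3b -0.025, and high cerebella gave Scn1a 0.20, Scn2a 0.13, Scn3a 0.21, Scn8a 0.28, Scn2b 0.087 and Scn3b 0.12. The regions in sham rats gave Scn4a -0.094, whereas the regions in medium rats gave Scn8a -0.36. With limma-voom, low striata gave Scn2a -0.23, Scn3a -0.11 and Scn8a -0.098, medium striata gave Scn1a 0.052, Scn2a -0.013 and Scn3b -0.013, and high striata gave Scn1a -0.067, Scn3a 0.028 and Scn4b -0.093. Low cerebella gave Scn3b -0.048, medium cerebella gave Scn1a 0.12, Scn2b 0.0061 and Scn3b -0.14, and high cerebella gave Scn1a 0.087, Scn3a 0.016, Scn8a 0.087, Scn3b 0.0013 and Scn4b 0.094. The regions in sham rats gave Scn4a -0.29, whereas the regions in medium rats gave Scn8a -0.32. With neuron and ribosomal means as covariates, low striata gave Scn2a -0.051, medium striata gave Scn1a 0.12 and Scn3b -0.12, and high striata gave Scn3a 0.038. Low cerebella gave Scn3a -0.052, Scn8a -0.035 and Scn3b -0.18, medium cerebella gave Scn1a 0.052 and Scn2b 0.097, and high cerebella gave Scn1a 0.17, Scn2a 0.17, Scn3a 0.10 and Scn8a 0.16. Without animal 17, low striata gave Scn2a -0.017 and Scn4b -0.10, medium striata gave Scn2a -0.0066, and high striata gave Scn2a -0.012 and Scn4b -0.16. Scn2a in low striata was -0.0041 with DESeq2 and with RLE scaling, and in low cerebella it was -0.062 with the run of numbers as a term. The lowest level of any subunit was that of Scn3b in cerebellum high 43, at 2.04 CPM, where counting error is widest.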
